A study of Mus musculus with 24 samples.

Results

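The 47 genes described here encode the proteins that find and fire DNA replication origins, copy DNA at the fork and supply its nucleotides. They were chosen by name, as every non-control probe whose gene name is on the list, which gave 61 probes of the 39429 on the array. 58 of these probes passed the filter on dim spots, and each of the 47 genes kept at least 1 probe among the 20958 genes tested. The RNA came from 24 mammary tumors in female BALB/c mice that had all received the carcinogen DMBA (7,12-dimethylbenz[a]anthracene), and was read on 2-colour Agilent arrays beside a common reference RNA pooled from mouse cell lines. Continuous diets were the low-fat diet (LFD, 5 tumors, all late) and the high-fat diet (HFD, 3 early and 6 late tumors). In the crossover arms the diet changed after puberty, from HFD to LFD (HFD-LFD, 3 early and 3 late tumors) or from LFD to HFD (LFD-HFD, 4 late tumors). Tumors are numbered within their group. Early and late are the onset labels of the tumors, and both early groups had received HFD around puberty. The arrays sample whole tumor tissue, so a higher share of dividing cells and more RNA per dividing cell cannot be told apart.

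Replication starts with the origin recognition complex, onto which Cdc6 and Cdt1 load the ring-shaped MCM2-7 helicase, a step that geminin (Gmnn) blocks. The kinase Cdc7 with its activator Dbf4, and the factors Cdc45, Mcm10 and GINS, turn the loaded ring into an active helicase. Polymerase alpha-primase lays primers, polymerases delta and epsilon extend them on the Pcna clamp that replication factor C loads, RPA coats single strands, and Fen1 and Lig1 process and join the lagging strand. Rrm1, Rrm2, Tyms and Tk1 make the nucleotides. Many of these genes are transcribed in late G1 and S phase under E2F factors and are widely used as signs of proliferation in breast tumors.

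E2F-type letters were looked for in the bases that lie before the start of these genes, because transcription of replication genes is known to depend on them. The motifs searched on both strands were TTTCCCGC, TTTGGCGC and TTTCGCGC, the last of which can overlap the others, within 250 bases upstream of each RefSeq start (GRCm38.p6). 39 of the 47 genes matched that table by symbol. At least 1 of the motifs stood in 9 of their 48 promoters (18.8%), and in 504 of all 32851 promoters (1.53%). The letters CCAAT stood in 24 of the 48 promoters (50%) and in 33.8% of all promoters. The stretches below are shown for 5 genes that passed the early against late test and for Orc3, which holds a motif and did not pass; capitals mark the motif, and each line is read 5′ to 3′ on the strand of the gene.
Orc1, 47 bases up to the start, plus strand, chr4:108579407-108579453: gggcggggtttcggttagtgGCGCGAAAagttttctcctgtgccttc
Rfc3, 30 bases up to the start, minus strand, chr5:151651209-151651238: ccggaagtgacgtcgcacgcTTTCGCGCtc
Gins3, plus strand, chr8:95633498-95633545: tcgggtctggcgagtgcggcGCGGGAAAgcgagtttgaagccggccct
Mcm5, plus strand, chr8:75109336-75109387: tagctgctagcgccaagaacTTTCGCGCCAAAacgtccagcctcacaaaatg
Mcm6, minus strand, chr1:128359725-128359835: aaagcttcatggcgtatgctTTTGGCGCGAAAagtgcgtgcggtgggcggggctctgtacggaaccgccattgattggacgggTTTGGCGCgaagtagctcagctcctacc
Orc3, minus strand, chr4:34614956-34615003: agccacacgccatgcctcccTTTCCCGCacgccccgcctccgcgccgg
Mcm5 and Mcm6 each carry a pair of overlapping motifs, and Mcm6 a further one closer to its start. Of the genes with a promoter in the table, 7 of 17 that passed the test and 2 of 22 that did not held a motif, which describes the letters and says nothing of binding.

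All values are log2 ratios of tumor over reference. The labels place tumor RNA in Cy5 and the reference in Cy3, whereas the methods of the study name Cy5 for the reference. The arrays were read as labelled: the median SD of a probe between arrays was 0.429 in Cy5 and 0.176 in Cy3, and 2 probes for Y-linked genes, which female tumors lack, were brighter in Cy3 on all 24 arrays. The share of probes whose tumor signal stood well above background was 65.8% to 89.1% per array. The epithelial genes Krt8, Krt14 and Cdh1 were well above background in all 24 tumors. On 7 arrays of 2 slides, all late tumors, the Cy5 signal was lost over 22.1% to 26.4% of the spots, and those spots were set missing. As a result 25 of the 47 genes had values in all 24 tumors, 14 in 21 tumors and 8 in 20 tumors. The 3 early HFD tumors were the only arrays on their slide, and the 3 early HFD-LFD tumors shared theirs with 1 late LFD-HFD tumor.

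Of the 47 replication genes, 21 were higher in the 6 early than in the late tumors at an adjusted p under 0.05, 0 were lower and 26 did not pass (limma over all 20958 genes with Benjamini-Hochberg adjustment). Over all genes tested, 7.53% were called higher and 13.2% lower. The early mean exceeded the late mean for 45 of the 47, and for 42.3% of all genes. The median difference over the 47 was 0.48 log2 units, beside a median of -0.07 over all genes, and the 21 called genes differed by 0.39 to 0.81 log2 units, or 1.31-fold to 1.75-fold. No gene of the set had all 6 early tumors above all late tumors, a separation that 0.262% of all genes showed. For 29 of the 47, every early tumor lay above the median of the late tumors, a count that was not made over all genes.

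**Figure D1:**
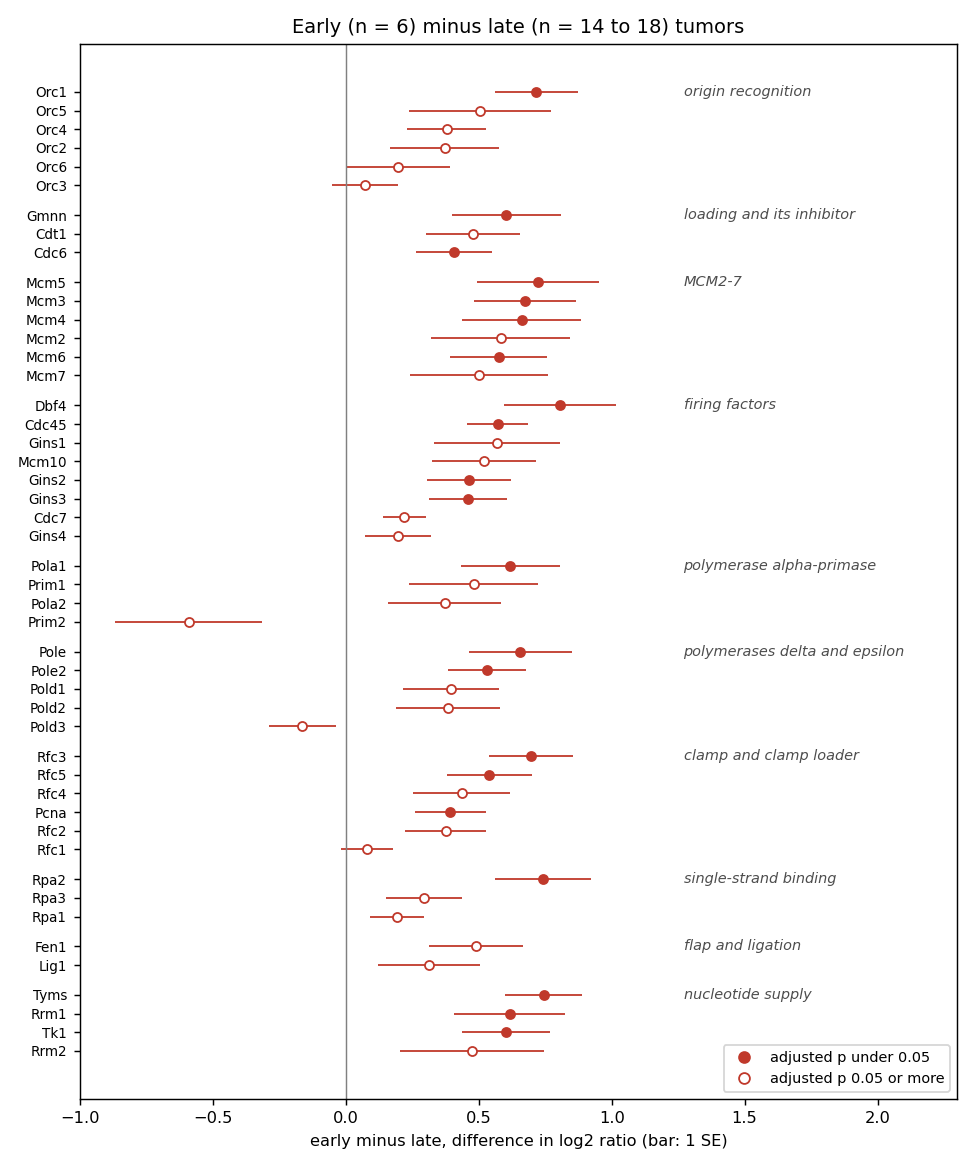
Early minus late difference in log2 ratio for each of the 47 replication genes (x axis), grouped by role, with bars of 1 standard error; filled points passed at an adjusted p under 0.05. The 21 filled points all lie to the right of 0, and Prim2 and Pold3 are the only genes to the left of it.

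Slide and scan session, as the file headers give them, bear on this count. Within the first scan session (3 early, 8 late tumors) 5 genes were called and the median difference was 0.50. Within the second (3 early, 3 late) 13 were called and the median was 0.62. Over all genes, 7.14% were called in either direction in the first session and 9.43% in the second. The third session held late tumors only. A random effect of slide left 9 genes called (all among the 21), beside 11.3% of all genes. A fixed effect of slide left 0, beside 0.172% of all genes. In that fit 22 of the 47 had an unadjusted p under 0.05, a share not given here for all genes. There only the 1 slide with both onsets informs the comparison. On that slide all 3 early tumors exceeded the late tumor for 43 of the 47 genes, as they did for 32.7% of all genes. That late tumor, LFD-HFD tumor 3, had another diet than the early tumors beside it. Its median level over the genes of the set, described below, was -0.27 and ranked 22 of the 24. The LFD and LFD-HFD tumors were all late. Among the HFD and HFD-LFD tumors alone, 8 genes were called, all among the 21, beside 17.9% of all genes in either direction. The median difference over the 47 was then 0.38. With all diets again but without the 7 arrays with lost signal, 26 genes were called, 17 of them among the 21, beside 19.5% of all genes. With 1 early tumor left out, the count was 11 without early HFD tumor 1 (15.8% of all genes) and 13 without early HFD tumor 2 (12.0%). It was 10 without early HFD-LFD tumor 3 (16.2%). Of the 26 that did not pass, Orc4, Cdt1, Mcm7, Cdc7, Gins1, Mcm10, Pold1 and Fen1 passed with at least 1 choice of tumor left out.

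Of the 6 origin recognition subunits, which bind origins together, 1 was called. Orc1, the largest subunit and an ATPase, had log2 ratios of 1.29, 1.08 and 0.67 in the early HFD tumors and 0.44, 0.30 and 0.73 in the early HFD-LFD tumors. In late tumors Orc1 ran from -0.44 through a median of 0.02 to 0.63. Only 4 of the 18 late tumors reached the lowest early one, and the means differed by 0.72 ± 0.16 (SE; adjusted p = 0.0032). Orc4 ran from 0.43 through 0.99 to 1.14 in early tumors and from 0.00 through 0.60 to 1.12 in the 14 late tumors measured, a difference of 0.38 ± 0.15 (adjusted p = 0.0726). Orc3 ran from -0.74 through -0.22 to -0.10 in early and from -0.72 through -0.39 to 0.20 in late tumors, with a difference of 0.07 ± 0.12 (adjusted p = 0.699). Late tumors thus covered most of the early range for both. Orc5, Orc2 and Orc6 gave differences of 0.51, 0.37 and 0.20 and did not pass. Orc2 and Orc5 were called between the early groups, which lay on different slides, as described below. A second Orc3 probe gave a difference of 0.34 (adjusted p = 0.0912).

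Of the loading factors, Gmnn and Cdc6 were called and Cdt1 was not. Gmnn, the inhibitor of loading, ran from 0.50 through 0.87 to 1.31 in early tumors and from -0.58 through 0.26 to 1.31 in the 14 late tumors measured. It differed by 0.60 ± 0.21 (adjusted p = 0.0428), while its second probe gave 0.11 and was not called. Cdc6, the loader ATPase, ran from 0.04 through 0.46 to 0.88 in early and from -0.67 through 0.12 to 0.44 in late tumors, so the groups overlapped. It differed by 0.41 ± 0.14 (adjusted p = 0.0470), and by 0.65 with its second probe (adjusted p = 0.000383). Cdt1, the other loading factor, ran from -0.19 through 0.26 to 0.42 in early and from -0.92 through -0.32 to 0.45 in late tumors, a difference of 0.48 ± 0.18 (adjusted p = 0.0561).

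Among the 6 MCM2-7 helicase subunits, Mcm3, Mcm4, Mcm5 and Mcm6 were called, and the median difference of 0.62 was the largest of the 10 role groups. Mcm3 ran from 0.48 through 0.87 to 1.04 in early tumors and from -0.64 through 0.17 to 1.09 in late tumors. The late group thus spanned the early one, with 5 late tumors at or above the lowest early value, and the difference was 0.67 ± 0.19 (adjusted p = 0.0166). Mcm5 showed the same layout, with early values of 0.22 to 0.74, late values of -1.45 to 1.03 and a difference of 0.72 ± 0.23 (adjusted p = 0.0297). Mcm6 ran from 0.10 through 0.28 to 0.64 in early and from -0.93 through -0.25 to 0.88 in late tumors, a difference of 0.57 ± 0.18 (adjusted p = 0.0280). Mcm2 differed by 0.58 ± 0.26 (adjusted p = 0.112). Mcm7 ran from 0.37 through 0.60 to 1.03 in early and from -0.60 through -0.02 to 1.92 in late tumors, a difference of 0.50 ± 0.26 (adjusted p = 0.166). Its highest value was that of late HFD tumor 6. The SD of Mcm7 in late tumors was 0.64 (n = 15) with that tumor and 0.41 (n = 14) without it, against 0.24 in early tumors (n = 6), and without that tumor Mcm7 was called, with a difference of 0.63 ± 0.18 (adjusted p = 0.0169).

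Of the 8 firing factors, Cdc45, Dbf4, Gins3 and Gins2 were called. Cdc45, a subunit of the active helicase, was 0.87, 0.55 and 0.59 in the early HFD tumors and 0.70, 0.32 and 0.51 in the early HFD-LFD tumors. Late values ran from -0.30 through -0.04 to 0.74, and 1 late tumor of 18 reached the lowest early one. The difference of 0.57 ± 0.11 had an adjusted p of 0.0019. Dbf4, the activator of the Cdc7 kinase, showed the largest difference of the 47, 0.81 ± 0.21 (1.75-fold, adjusted p = 0.0108), with early values of 0.08 to 1.26 and late values of -0.93 to 0.76. Its partner Cdc7 differed by 0.22 ± 0.08 (adjusted p = 0.0520) and stood well above background in 14 of 24 tumors only. Gins4 gave the largest p of the group, with early values of 0.38 through 0.64 to 1.0, late values of 0.05 through 0.38 to 0.87 and a difference of 0.20 ± 0.12 (adjusted p = 0.254).

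**Figure D2:**
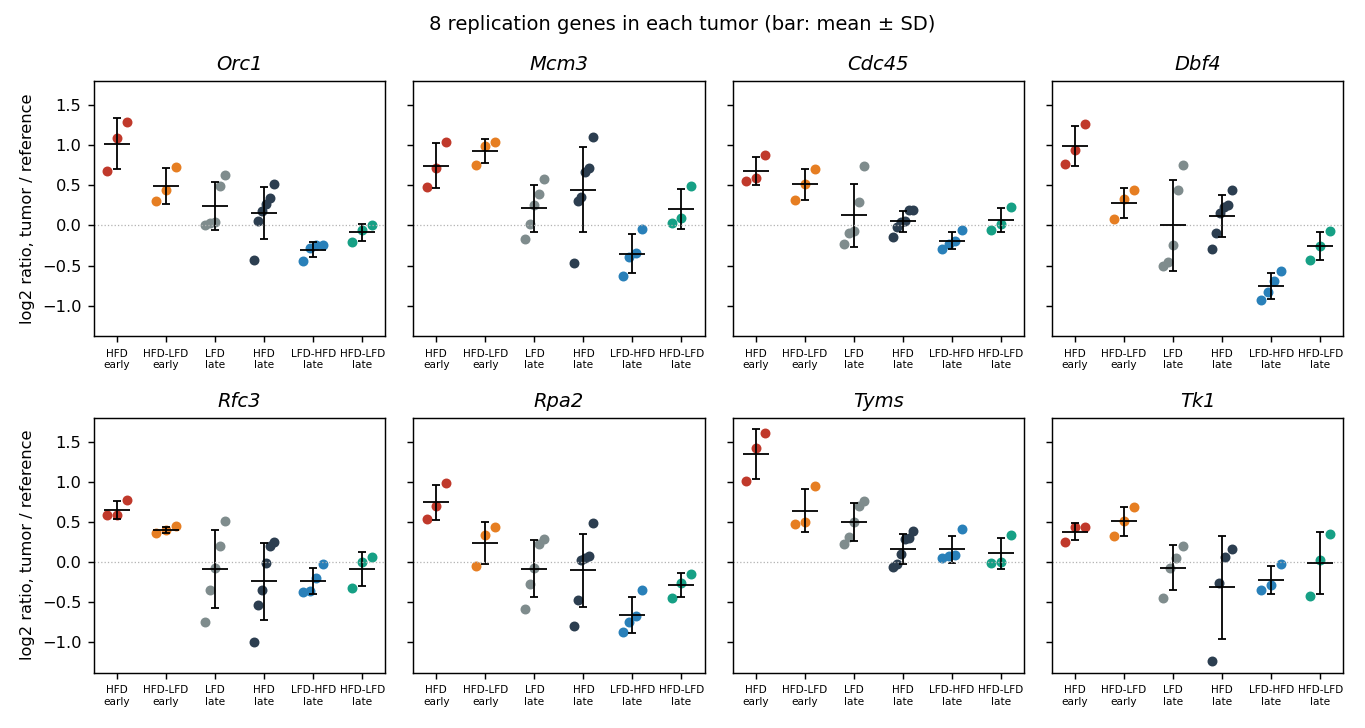
Log2 ratio of tumor over reference (y axis) in each tumor for 8 replication genes, by diet and onset group; each point is 1 tumor and the bars give the mean and SD of the group. The 8 genes are those that passed the test with every tumor left out in turn, and for Cdc45, Rfc3 and Tk1 only 1 late tumor reaches the lowest early tumor.

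At the primase and polymerases, Pola1, Pole and Pole2 were called. Pola1, the catalytic subunit of polymerase alpha, ran from 0.67 through 0.92 to 1.30 in early tumors and from -0.45 through 0.22 to 1.07 in the 15 late tumors measured, a difference of 0.62 ± 0.19 (adjusted p = 0.0244). Pole, the catalytic subunit of polymerase epsilon, ran from 0.25 through 0.79 to 1.03 in early and from -0.65 through -0.05 to 0.82 in late tumors, a difference of 0.66 ± 0.19 (adjusted p = 0.0224). Its partner Pole2 ran from 0.43 through 0.79 to 1.28 in early and from -0.21 through 0.24 to 0.90 in late tumors, a difference of 0.53 ± 0.15 (adjusted p = 0.0165). The groups overlapped for both. The polymerase delta subunits Pold1 and Pold2 differed by 0.40 and 0.38 (adjusted p = 0.118 and 0.155). Pola2, the partner of Pola1, ran from -0.41 through 0.17 to 0.81 in early and from -0.95 through -0.13 to 0.57 in late tumors, a difference of 0.37 ± 0.21 (adjusted p = 0.206). Pold3, an accessory subunit of polymerase delta, had a lower mean in early tumors, with values of -0.01 through 0.28 to 0.80 against 0.05 through 0.56 to 0.92, a difference of -0.16 ± 0.13 (adjusted p = 0.358).

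Prim2, the large primase subunit, was the other gene with a lower early mean, at -2.21 ± 0.33 (SD, n = 6) against -1.62 ± 0.67 (SD, n = 15). That difference of -0.59 ± 0.28 (SE) did not pass (adjusted p = 0.127), and a second probe of the gene gave 0.16 (adjusted p = 0.338). Rpa1, the large RPA subunit, had a brighter probe with values of 0.15 through 0.50 to 0.68 in early and -0.07 through 0.21 to 0.59 in late tumors, a difference of 0.19 ± 0.10 (adjusted p = 0.169) and a second with 0.69 (adjusted p = 0.0018). The first 30 bases of these 60-base probes are shown because the probes of each gene gave different results; coordinates are those in the array files (mm9), which name no strand.
Prim2, brighter probe, chr1:33510733-33510792: ggaaaggaagcattcctattgaaactgtta
Prim2, second probe, chr1:33535912-33535971: taaaaagtttcctataaaagttctctaaga
Rpa1, brighter probe, chr11:75113898-75113957: ccaggcggacctgtgtacctttattaaagc
Rpa1, second probe, chr11:75114060-75114119: cttcattatccacatagtggggtcagttac
The Prim2 probes lie far apart in the gene, while those of Rpa1 lie close together. In 11 genes of the set more than 1 probe passed the filter, and only for Prim2 did the probes differ in sign. For 4 of the 11 (Gmnn, Rfc4, Rfc5 and Rpa1) 1 probe was called and the other was not.

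Of the clamp and its loader, Rfc3, Rfc5 and Pcna were called. Rfc3 was 0.77, 0.58 and 0.59 in the early HFD tumors and 0.44, 0.37 and 0.40 in the early HFD-LFD tumors. Late values of Rfc3 ran from -0.99 through -0.13 to 0.51, with 1 late tumor at or above the lowest early one, and the difference was 0.70 ± 0.16 (adjusted p = 0.0041). Rfc5 ran from 0.12 through 0.70 to 0.99 in early and from -0.51 through 0.03 to 0.60 in late tumors, a difference of 0.54 ± 0.16 (adjusted p = 0.0197), whereas its second probe gave 0.26 (adjusted p = 0.181). For Rfc4 the brighter probe gave 0.44 ± 0.18 (adjusted p = 0.0855) and the second 0.76 (adjusted p = 0.0122). Pcna, the clamp, differed by 0.39 ± 0.13 (adjusted p = 0.0420). The large subunit Rfc1 ran from -0.68 through -0.26 to 0.23 in early and from -0.61 through -0.32 to -0.18 in late tumors, a difference of 0.08 ± 0.10 (adjusted p = 0.569), and all 18 late tumors lay within its early range.

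Rpa2, the middle subunit of the single-strand binding complex, was called, whereas Rpa1 and Rpa3 were not. Rpa2 was 0.98, 0.70 and 0.54 in the early HFD tumors, 0.43, -0.05 and 0.33 in the early HFD-LFD tumors, and -0.87 through -0.26 to 0.48 in late tumors. The highest late tumor exceeded the 3 early HFD-LFD tumors and none of the early HFD tumors, and the difference was 0.74 ± 0.18 (adjusted p = 0.0065). Rpa3, the small subunit, ran from 0.25 through 0.49 to 0.60 in early and from -0.68 through 0.28 to 0.56 in late tumors, a difference of 0.29 ± 0.14 (adjusted p = 0.144). The flap nuclease Fen1 ran from -0.07 through 0.52 to 0.84 in early and from -0.87 through -0.08 to 0.64 in late tumors, a difference of 0.49 ± 0.18 (adjusted p = 0.0504). The ligase Lig1 ran from -0.63 through 0.09 to 0.30 in early and from -1.03 through -0.25 to 0.50 in late tumors, a difference of 0.31 ± 0.19 (adjusted p = 0.239). Neither was called, and the groups overlapped for both.

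Of the nucleotide genes, Tyms, Tk1 and Rrm1 were called. Tyms, which makes thymidylate, had the smallest adjusted p of the 47, 0.0016, with a difference of 0.75 ± 0.14 (1.68-fold). Its values were 1.60, 1.0 and 1.43 in the early HFD tumors, 0.50, 0.47 and 0.95 in the early HFD-LFD tumors, and -0.06 through 0.26 to 0.76 in late tumors. Tk1, which salvages thymidine, ran from 0.25 to 0.69 in early tumors and from -1.23 through -0.05 to 0.35 in the 14 late tumors measured. For Tk1, 1 late tumor reached the lowest early one, and the difference was 0.60 ± 0.17 (adjusted p = 0.0157). The ribonucleotide reductase subunit Rrm1 differed by 0.62 ± 0.21 (adjusted p = 0.0419). Its partner Rrm2 ran from 0.15 through 0.33 to 0.78 in early and from -1.13 through -0.15 to 1.23 in late tumors, a difference of 0.48 ± 0.27 (adjusted p = 0.208).

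**Figure D3:**
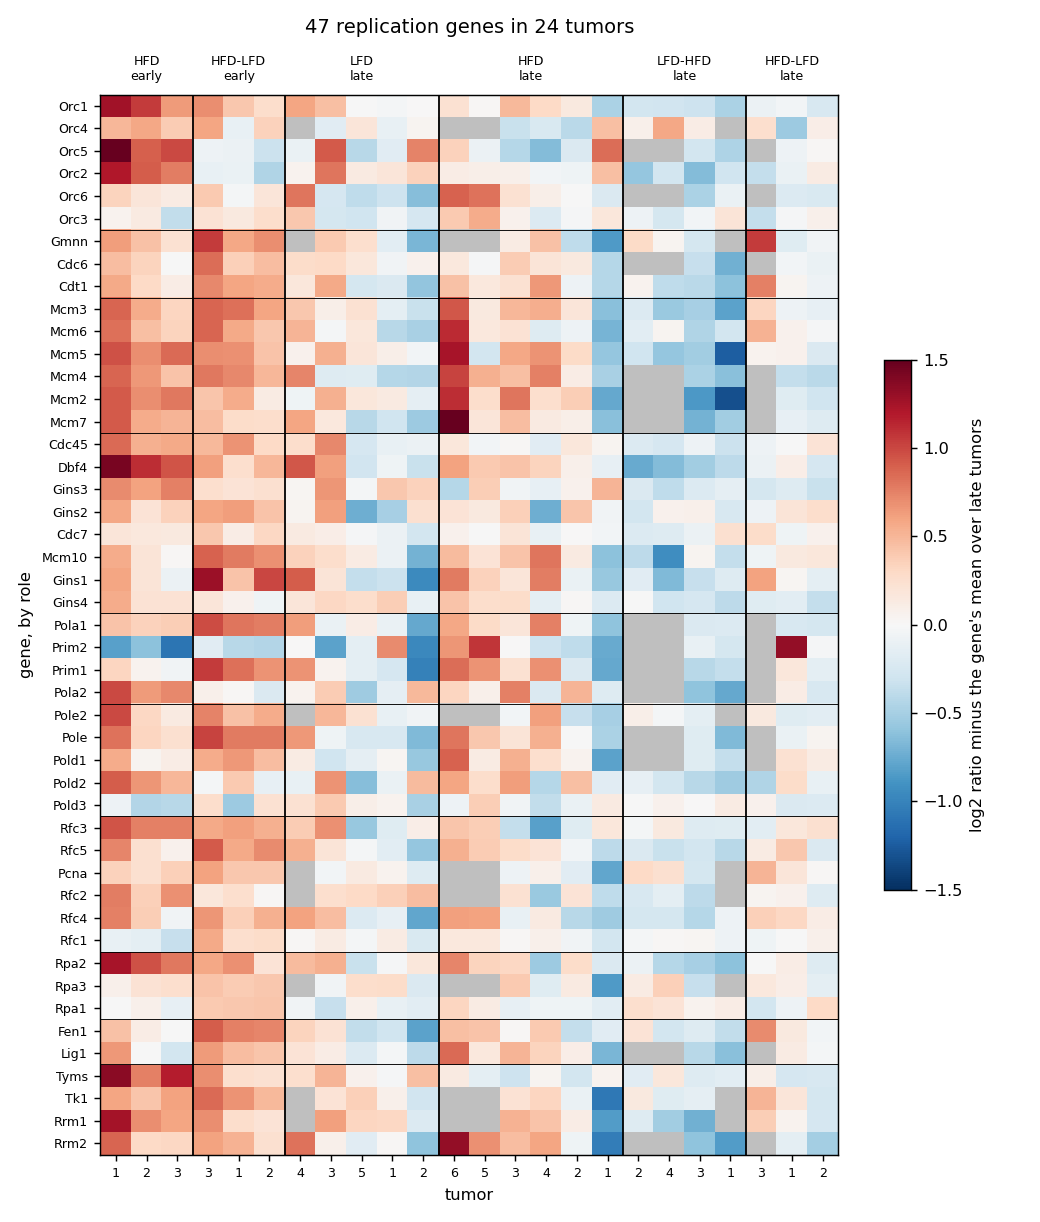
Log2 ratio minus the mean of the gene over late tumors (color, clipped at 1.5 either way) for 47 genes (rows, by role) in 24 tumors (columns, by group and then by median level, with the number of the tumor in its group); gray marks values set missing. The 6 early tumors are red over most rows, as are the leftmost late HFD tumor and some late LFD tumors, and the 4 LFD-HFD tumors are mostly blue.

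Single tumors did not follow their onset label throughout. Taken as the median over the 47 genes of the log2 ratio minus the mean of each gene in late tumors, the early tumors ran from 0.32 to 0.70, and the late ones from -0.43 through -0.02 to 0.53. The late HFD tumor 6 ranked at number 3 of the 24, at 0.53, and exceeded 4 of the 6 early tumors; 39 of the 47 genes were measured on its array. The late HFD tumor 1 was lowest, at -0.43. Tumors had 33 to 47 of the genes measured, and over the 25 genes with values in every tumor the late HFD tumor 1 stood at -0.17, above 4 other late tumors. Over those 25 genes the late HFD tumor 6 stood at 0.43 and the late LFD tumor 3 at 0.46 (0.26 over all its genes), both above 4 of the 6 early tumors. The 4 LFD-HFD tumors lay between -0.36 and -0.16 and all ranked among the lowest 6, over all genes measured and over the 25. Late tumors differed more from each other than early ones did: the SD between tumors was larger in the late group for 38 of the 47 genes, with medians of 0.42 and 0.27. Without late HFD tumor 6, a choice made after seeing the data, it was larger for 36 of the 47, with a late median of 0.38. The late group takes in more diets, slides and scan sessions than the early group. These SDs were not compared over all genes.

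**Figure D4:**
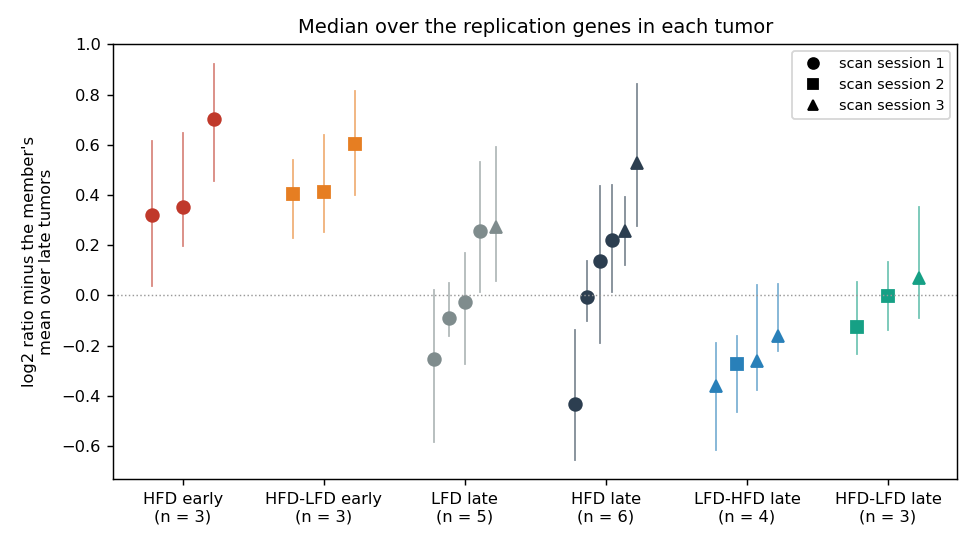
Median over the 47 genes in each tumor (y axis, log2 ratio minus the mean of each gene over late tumors) by group, with bars from the lower to the upper quartile of the genes and symbols for the scan session. All 6 early tumors lie above 0.3, as does 1 late tumor, the late HFD tumor at 0.53; over the 25 genes with values in every tumor, 1 late LFD tumor does so as well.

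Within the HFD tumors (3 early, 6 late), 10 of the 47 were called higher in early tumors and 0 lower, where 6.58% of all genes were called higher and 9.6% lower. The 10 were Tyms, Orc2, Orc1, Rfc2, Dbf4, Cdc45, Gins3, Orc5, Rpa2 and Rfc3, and 7 of them were among the 21 above. These contrasts come from a model of 6 group means over all 24 tumors. Tyms differed by 1.18 ± 0.16 (SE; adjusted p = 0.000633), with late HFD values from -0.06 through 0.19 to 0.38, all below the early HFD tumors. Orc2 had early values of 1.20, 0.90 and 0.76 and late values of -0.08 through 0.08 to 0.45, a difference of 0.86 ± 0.17 (adjusted p = 0.0035). For each of the 10, all early HFD tumors lay above all late HFD tumors measured, a separation that was not counted over all genes. Orc5 differed by 1.20 ± 0.31 (adjusted p = 0.0180). None of the MCM2-7 subunits was called within HFD, where their median difference was 0.38. Without the early HFD tumor 1, 3 of the 47 were called, and the share of all genes called in that fit is not given here. Onset and slide cannot be told apart within HFD.

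Within the HFD-LFD tumors (3 early, 3 late), 0 of the 47 were called, while 1.2% of all genes were called higher and 1.23% lower. At an unadjusted p under 0.05 there were 14 of the 47, all higher in early tumors, and 22.3% of all genes in either direction. The median difference over the 47 was 0.46, beside -0.07 over all genes. Pola1 came closest, with early values of 1.12, 1.09 and 1.30 against 0.05 and 0.08 in the 2 late tumors measured, a difference of 1.1 ± 0.34 (adjusted p = 0.0848). Under median centring of each array in place of loess, 40 of the 47 were called, as were 7861 genes in all.

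The onset difference was not shown to depend on the diet. In the test of the difference between the HFD and HFD-LFD contrasts, 0 of the 47 and 0% of all genes passed in either direction. An unadjusted p under 0.05 was found for 9.13% of all genes and for 7 of the 47. Among them the contrast was larger within HFD for Orc2, by 0.97 ± 0.25 (adjusted p = 0.431), and for Orc5, by 1.33 ± 0.51 (adjusted p = 0.480). It was smaller within HFD for Rfc1, with a difference of -0.57 ± 0.17 (adjusted p = 0.448). 37 of the 47 genes had a higher early mean within both diets, a count that was not made over all genes. Taken singly, 40.9% of all genes had a higher early mean within HFD and 43.4% within HFD-LFD.

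**Figure D5:**
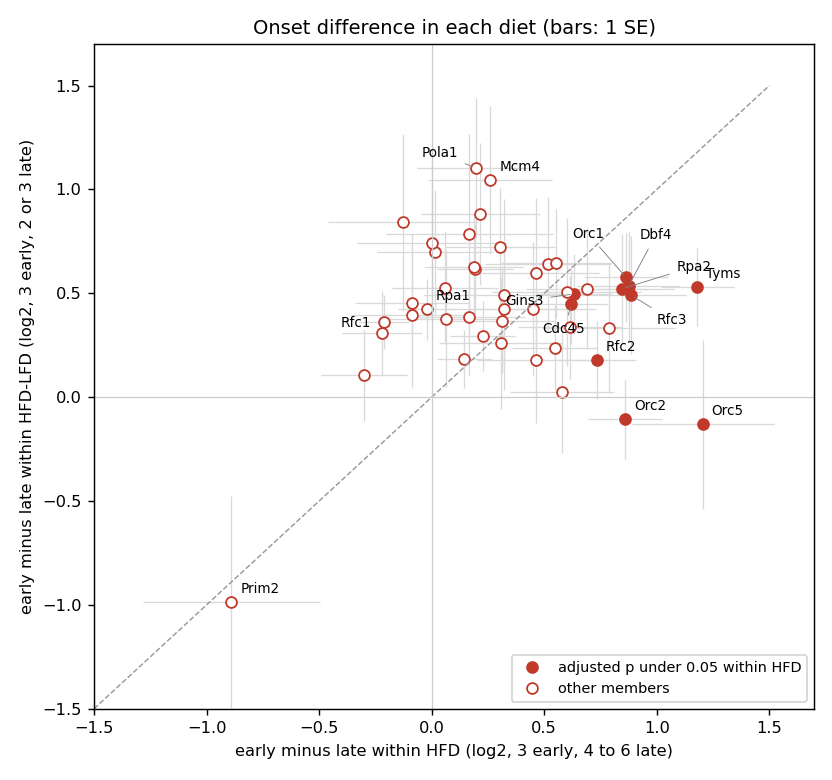
Early minus late difference in log2 ratio within HFD (x axis) and within HFD-LFD (y axis) for the 47 genes, with bars of 1 standard error and a dashed line where both are equal; filled points passed within HFD. Orc2 and Orc5 lie at 0.86 and 1.20 within HFD and just below 0 within HFD-LFD, and Pola1 and Mcm4 lie above 1 within HFD-LFD.

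Between the early groups, 4 of the 47 were called, 3 higher and 1 lower in HFD than in HFD-LFD, where 4.82% of all genes were higher and 5.1% lower. The set was not shown to stand apart from all genes in this comparison. With the deposited scanner ratio 1 was higher and 1 lower, and in the tumor channel alone 0 were higher and 2 lower. Orc2 was -0.11, -0.46 and -0.12 in the early HFD-LFD tumors, 1.18 ± 0.19 below early HFD (adjusted p = 0.0021). Orc5 was 1.66, 0.92 and 1.02 in early HFD and -0.06, -0.30 and -0.05 in early HFD-LFD, a difference of 1.34 ± 0.36 (adjusted p = 0.0288). Tyms differed by 0.70 ± 0.19 (adjusted p = 0.0237). Rfc1 was lower in early HFD, at -0.44, -0.48 and -0.68 against -0.08, -0.05 and 0.23, a difference of -0.57 ± 0.13 (adjusted p = 0.0105). The groups did not overlap for any of the 4, which were picked by this same test, and that separation was not counted over all genes. The early groups were hybridized on different slides and in different scan sessions, so diet and slide cannot be told apart. With session as a fixed block 0 of the 47 were called. The count was 1 without early HFD tumor 3 and 2 without early HFD tumor 1, early HFD-LFD tumor 1, early HFD-LFD tumor 2 or early HFD-LFD tumor 3. Shares of all genes are not given here for these alternatives.

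Few of the genes differed by diet among late tumors or between the continuous diets. Across the late tumors of the 4 diets, a moderated F test called 1 of the 47, Orc2, and 1.65% of all genes. Orc2 averaged -0.46 ± 0.19 (SD, n = 4) in LFD-HFD, -0.12 ± 0.24 (n = 3) in HFD-LFD, 0.10 ± 0.19 (n = 6) in HFD and 0.29 ± 0.30 (n = 5) in LFD, with an adjusted p of 0.0492. That call was lost without the 7 arrays with lost signal and without most single tumors, while 4 of the 47 were called without late LFD tumor 4 and 5 without late HFD tumor 1. The shares of all genes called in those fits are not given here. Between the 9 HFD and 5 LFD tumors, 0 of the 47 and 0% of all genes were called in either direction by limma. An unadjusted p under 0.05 was found for 1 of the 47 and 811 of all genes. The median difference over the 47 was 0.20, beside -0.004 over all genes. Of the HFD tumors 3 were early, while all LFD tumors were late, so this comparison also differs in onset.

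Other genes of replication and its control, listed by known role, were counted beside the set. Of 50, 48 were tested, and 23 were higher and 0 lower in early tumors, with a median difference of 0.52. Dck, a salvage kinase for deoxynucleosides, differed by 0.83 ± 0.08, and Ccna2, the S-phase cyclin A2, by 1.18 ± 0.26 (adjusted p = 0.0041). The repressor E2f8 differed by 0.90 ± 0.27 (adjusted p = 0.0212), whereas E2f1 differed by 0.32 ± 0.17 (adjusted p = 0.179). Samhd1, which breaks down deoxynucleotides, differed by 0.04 (adjusted p = 0.863). Of 19 mitosis genes tested, 9 were higher and 0 lower, with a median difference of 0.72. Late HFD tumor 6 again stood with the early tumors, at 1.20 on that list against 0.45 to 1.34 in early tumors. Late LFD tumor 4, at 0.60, and late LFD tumor 3, at 0.50, also lay within that early range.

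Markers of other cell types moved with onset for some lists, and their part in these results was not tested. The 5 T cell markers had a median difference of -0.87, with Cd3e and Cd3g lower in early tumors, and their mean log2 ratio ran from -1.38 to -0.40 in early and from -0.65 to 2.17 in late tumors. The 4 adipocyte markers tested had a median of -0.96, 1 of them lower (Plin1), and the mean ran from -3.89 to -2.65 in early and from -4.84 to 0.81 in late tumors. The 6 squamous keratinocyte markers had a median of 1.24 with 0 called, and ran from -3.30 to 0.13 in early and from -4.33 to 2.49 in late tumors. Among 5 fibroblast markers Dcn was lower, among 4 macrophage markers Lyz2 was higher, and 0 were called of 6 epithelial, 4 endothelial and 4 skeletal muscle markers. The markers of these lists were well above background on every array that measured them, except Ivl (19 of 21) and Tek (23 of 24).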

How the data were processed

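The deposited intensity values were the mean and local background signals of both channels that the authors read with Agilent Feature Extraction (11.0.1.1 in the file headers, 8.5.1.1 in the submitters' processing notes); the deposited log10 ratio of Cy5 to Cy3 was used as an alternative. Here signals were background corrected (normexp, offset 50) and loess normalized within arrays. Rows with lost Cy5 signal, found in bands of 10 rows below a log2 ratio of -0.3, were set missing. Probes were kept above a signal of 10 in both channels on 80% of arrays, as in the methods of the study. Flagged spots were imputed from 10 nearest probes (0.0258% of values), and the brightest probe stood for each gene. Probes were named by accession (27234), symbol (3576) or synonym (565); the other 8054 carry the name that the array file gives. limma 3.58.1 in R 4.3.3 compared groups, with Benjamini-Hochberg adjustment over 20958 genes at 0.05. Labels pair no tumors, and nothing beyond the tumor names shows that each came from its own mouse. The p-values therefore set group differences against the spread between these samples, and the number of arrays limits precision.

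The genes, lists and tests were chosen with earlier results of these data known. Early and late values with the difference, its SE and adjusted p are given, in each role group, for the 2 genes with the smallest p and the one with the largest, and for genes with the opposite sign; other genes named were chosen after their values were seen. One list of markers is not reported here. Alternatives covered background, normalization, filters, probes, batches and each tumor left out. On simulated tables of 20958 genes, early against late recovered 34.3% of changes of 0.5 log2 units, 80.6% of 1 and 93.9% of 2. The simulated noise was independent between genes and tumors and had the spread within each diet and onset group. It held no diet or slide effects, so recovery in the real data may be lower.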

Additional observations from a re-analysis of the deposited data

Results flagged for a closer look

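Among the 29 genes with full values, 103 groups of 4 to 10 tumors were searched for a tumor apart from its group by Dixon's 95% limit, which chance passes in about 1 group of 20, and 3 were found. Orc4 was 0.43 in the early HFD-LFD tumor 1, against 0.89 to 1.14 in the other 5 early tumors. Orc3 was -0.74 in the early HFD tumor 3, against -0.31 to -0.10 in the other 5. Tyms was 0.41 in the late LFD-HFD tumor 4, against 0.05 to 0.09 in the other 3. The test of the difference between the onset contrasts of HFD and HFD-LFD found none of the 47 genes.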

How the results depend on the processing

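Early against late, 21 genes were called. Counts under alternatives follow, with the share of all genes called in either direction in brackets. Array weights gave 32 (37.2%), slide as a random block 9 (11.3%) and as a fixed block 0 (0.172%). The first scan session alone gave 5 (7.14%), the second 13 (9.43%), and the HFD and HFD-LFD tumors alone 8 (17.9%). Leaving out 1 tumor gave 10 (16.2%) to 26 (21.2%). The median difference of 0.48 was 1.03 under median centring, which moved the median of all genes from -0.07 to 0.31, and 0.77 with slide as a fixed block, and 0.44 to 0.53 with 1 tumor left out. Within HFD, 10 were called: 6 in the tumor channel alone, 17 with array weights and 5 with slide as a random block, and 3 to 13 with 1 tumor left out (3 without early HFD tumor 1). Within HFD-LFD, 0 were called: 40 under median centring, 1 with the mean over probes, 1 without the arrays of slides 6 and 7, and 3 with array weights, and 0 or 1 with 1 tumor left out (1 without late HFD-LFD tumor 2). The difference between those contrasts called 1 with array weights and 0 with each tumor left out. Across late tumors, 1 was called: 0 under median centring, the deposited scanner ratio, normexp on all spots, the mean over probes, slides 6 and 7 left out and slide as a random or fixed block, 5 with array weights and 2 with session as a block, and 0 to 5 with 1 tumor left out. Between the early groups, 4 were called: 2 with the lost rows kept, the scanner ratio, the tumor channel alone and slide as a random block, 0 under median centring and session as a block, 21 with array weights, and 1 to 5 with 1 tumor left out. HFD against LFD called 0 under every alternative run. Of 1276 values of single genes under these alternatives, 1131 kept their direction where called and their side of the threshold, 101 lost the threshold, 44 gained it and 0 reversed. The cause of these changes was not tested. One alternative, removing the remaining trend along the rows of each array, was chosen after seeing the data and called 20 early against late (20.9%). Slide as a fixed block could not be estimated within HFD, for the difference of the contrasts or between the early groups, and the third scan session held no early tumor. Where slides 6 and 7 are left out, 1 LFD-HFD tumor remains, which is assumed to vary like the other groups. No paired analysis was possible because the groups compared share at most 1 tumor number: late LFD-HFD tumor 4 and late HFD-LFD tumor 3 carry the same number with different letters in their names, as do late HFD tumor 1 and early HFD-LFD tumor 3, and both pairs lie across diets. Signal limits the values most for Cdc7, which was well above background in 14 of 24 tumors, and then for Cdc45 with 22 of 24.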
